A study of Mus musculus with 19 samples.

Results

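The genes of translation initiation and elongation factors were examined in RNA from dendrites of cultured mouse hippocampal neurons. A member was any measured gene whose symbol starts with Eif or Eef and a digit, leaving out the Argonaute genes once called Eif2c and the Eif2ak kinases. This gave 54 of the 18193 genes on the array. Neurons were taken from E18 embryos of Balb/c or C57BL/6 mice, both inbred and otherwise unmodified, grown for 14 days without treatment, and their dendrites were cut off and pooled. The 5 Balb/c arrays held pools of 100 (2 arrays), 200 (1) and 400 (2) dendrites, and the 14 C57BL/6 arrays held pools of 100 (4), 200 (5) and 400 (5). RNA from such pools was amplified in several rounds. The sources describe the pools as biological replicates without saying which culture or animal each came from, and p-values therefore cover only the spread from pool to pool, with precision limited by the number of arrays. Some RNA of axons and cell bodies may be present by the study's own account.

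In translation initiation, eIF2 brings the initiator tRNA to the small ribosomal subunit, eIF3 holds the subunit and its partners together, and eIF4F, made of the cap-binding protein eIF4E, a scaffold eIF4G and the helicase eIF4A, recruits the mRNA. During elongation eEF1A delivers aminoacyl-tRNAs and eEF2 moves the ribosome along. Dendrites of hippocampal neurons make part of their proteins on site, and this local synthesis is needed for lasting changes of synapses.

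Many mRNAs of the translation apparatus start with a run of pyrimidines (a 5′ TOP motif), which places them under control of mTORC1, and many housekeeping promoters carry a binding motif of ETS factors near the start. Windows of 50 bases around annotated start sites, 30 before and 20 from the start on, are shown for 7 members that the strain comparison later turns on or that carry one of these patterns. They come from RefSeq (GRCm38.p6), where 43 of the 54 members were found. Capitals mark a C followed by at least 6 letters that are each C or T, read on the transcript's strand, or CCGGAAG on either strand. In the windows printed, the patterns do not overlap.

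Eef1a1 (chr9:78481705-78481754, minus strand): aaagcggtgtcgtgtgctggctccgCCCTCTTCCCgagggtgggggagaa
Eif3f (chr7:108934385-108934434, plus strand): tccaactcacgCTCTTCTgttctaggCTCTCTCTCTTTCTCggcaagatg
Eef1a2 (chr2:181156996-181157045, minus strand): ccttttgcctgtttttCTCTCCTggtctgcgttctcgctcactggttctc
Eif2s3x (chrX:94212632-94212681, minus strand): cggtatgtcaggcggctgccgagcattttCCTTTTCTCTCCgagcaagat
Eif2b2 (chr12:85219451-85219500, plus strand): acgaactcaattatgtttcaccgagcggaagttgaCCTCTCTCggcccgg
Eef1b2 (chr1:63176801-63176850, plus strand): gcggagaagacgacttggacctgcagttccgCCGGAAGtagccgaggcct
Eif2b4 (chr5:31193120-31193169, minus strand): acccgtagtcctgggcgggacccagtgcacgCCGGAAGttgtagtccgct

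A pyrimidine run lay in the 50-base window of 16 of the 43 members (37.2%), against 26.3% of 27025 gene symbols and 23.3% of 32851 promoters in the table. CCGGAAG lay in the 300-base promoter of 15 of the 43 members (34.9%), against 9.93% of symbols and 8.86% of promoters. Split by the strain calls given next, the run was found in 7 of 17 members lower in Balb/c, 2 of 6 higher and 7 of 20 not called. For CCGGAAG these counts were 5 of 17, 3 of 6 and 7 of 20. Annotated starts need not be the starts used in neurons, and a match is a description of letters only.

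The strains were compared first. Of the 54 members, 20 were lower in Balb/c and 8 were higher at a Benjamini-Hochberg adjusted p under 0.05 (limma, all genes fitted together), while 26 were not called. That is 37% lower and 14.8% higher, where among all genes 11.4% were lower and 21.1% higher. The groups of elongation factor eEF1, which counts Eef1e1 by its name, and of initiation factor eIF3 held 12 of the 20 lower members. The 8 higher ones were held by eIF2B, the repressors of eIF4E, Eif5a2, Eef2k and Eif3b. A difference is in log2 units, positive where Balb/c was higher, and relative to the median gene. That gene was 0.216 higher in Balb/c as deposited, and tests used deposited values without this shift. The median member lay at −0.67, and 40 of the 54 lay below the median gene. Over all members the mean level ran from 7.01 to 7.40 in the Balb/c arrays and from 7.36 to 8.12 in the C57BL/6 arrays. In bulk pools, fewer cells of a type and less RNA per cell cannot be told apart.

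**Figure D1:**
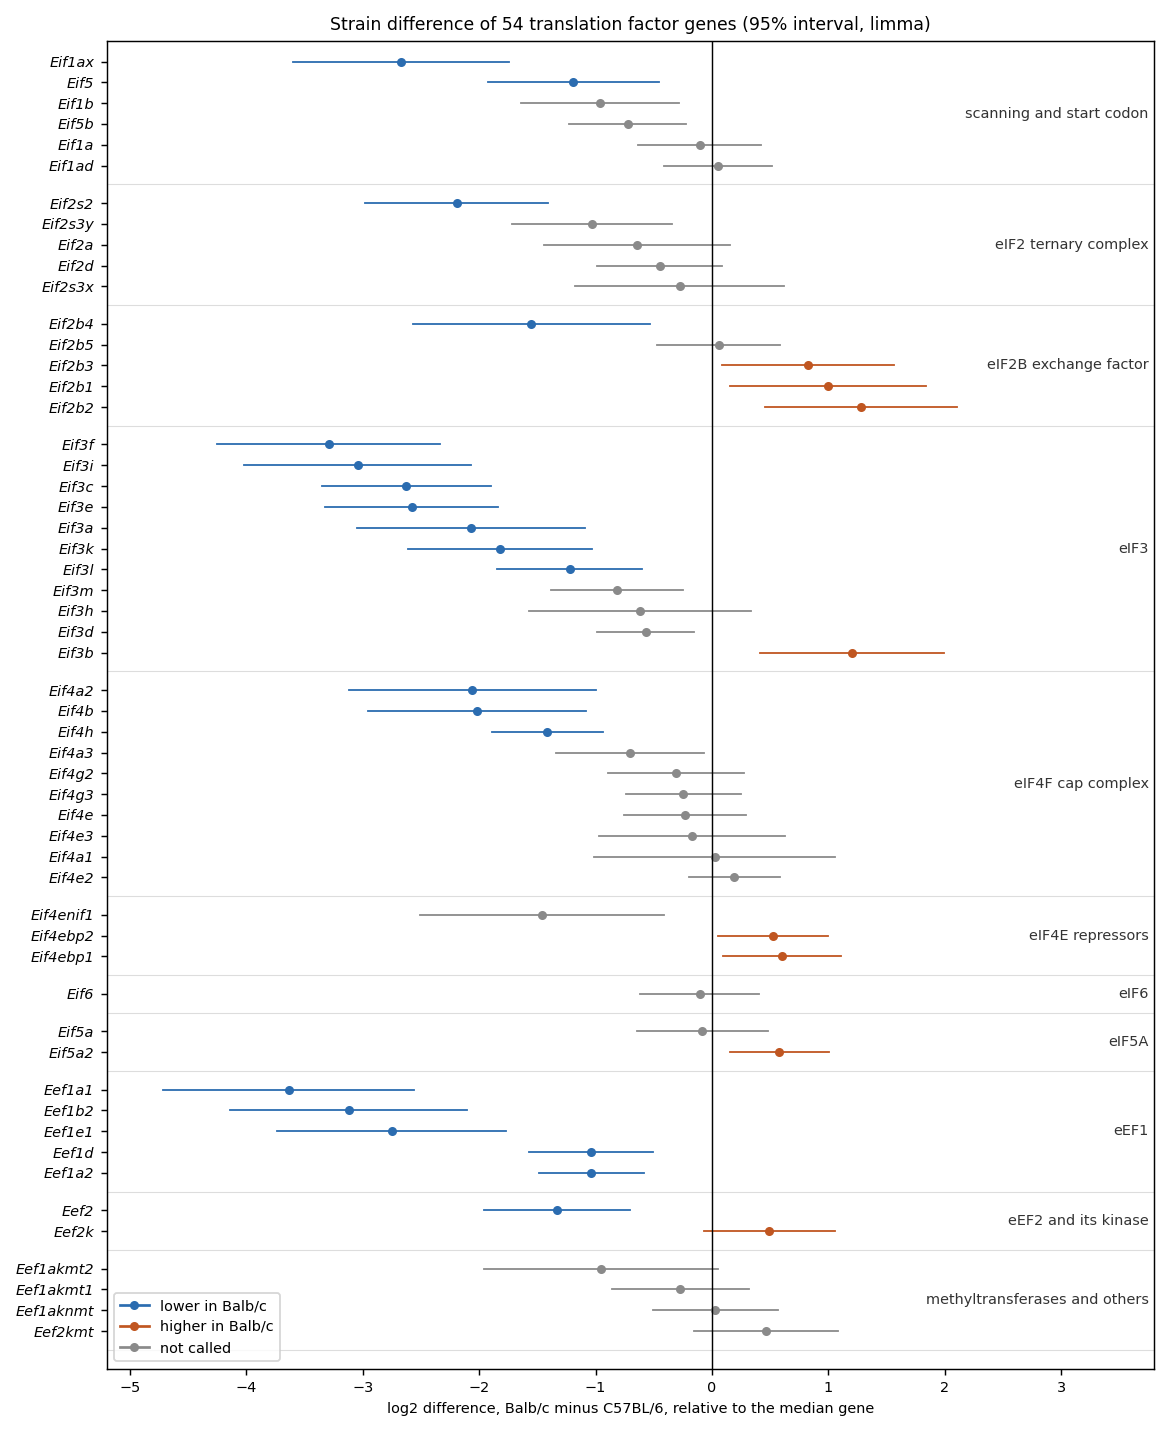
Difference between the strains for the 54 translation factor genes, grouped by role, with the log2 difference (Balb/c minus C57BL/6, relative to the median gene) on the horizontal axis. Points are estimates over 5 and 14 arrays, bars are 95% intervals from limma, and colours give the call at an adjusted p under 0.05. All 5 genes grouped as eEF1, with Eef1e1 counted by its name, and 7 of the 11 eIF3 genes lie to the left as called. On the right lie 3 of the 5 eIF2B genes.

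Several features of the arrays moved with the strain, and their part in these results was not tested. The 3 arrays Balb/c 200-1, C57BL/6 200-1 and C57BL/6 400-1 (named by dendrites per pool and replicate) lay between the strains over all genes. Balb/c 200-1 correlated more with the C57BL/6 arrays (mean r across genes 0.782) than with the other Balb/c arrays (0.678), and C57BL/6 200-1 more with Balb/c (0.781) than with its own strain (0.757). For C57BL/6 400-1 these were 0.722 with Balb/c and 0.779 with C57BL/6. Balb/c 400-2 was not counted with these 3 arrays, although its values were similar, at 0.775 with Balb/c and 0.720 with C57BL/6. Its highest correlation with any array was 0.891, as was that of C57BL/6 200-1. A mix-up of samples or labels was not tested, and strain here means the strain on the label. The Actb control probe sets gave a 3′ signal above the 5′ signal by 0.87 ± 1.31 log2 units (SD over 5 arrays) in Balb/c and by 3.87 ± 1.25 (SD over 14) in C57BL/6 (exact permutation test, two-sided, p = 0.000688), whereas for Gapdh this was 3.14 and 3.27 (p = 0.77). All Balb/c columns and 4 C57BL/6 columns were deposited with up to 14 decimals and the other 10 with up to 9. The 3 arrays between the strains were all among the columns with up to 14 decimals. Number format and position between the strains were therefore not separated. With this number format as a block, where the strain difference rests on 5 against 4 arrays, 4 members were still called, Eef1a1, Eif3f, Eif3c and Eif3e, all lower, and so were 1.92% of all genes (232 lower and 118 higher). Within the 9 columns of the long format alone, no gene of the 18193 was called by limma, and 14 members had an unadjusted p under 0.05. The share of all genes under that p is not given here, so the count of 14 is a description. When the 3 arrays between the strains were left out, 23 members were lower and 10 higher, and 43.6% of all genes were called in place of 32.5%. Leaving out arrays for their position between the strains widens the differences by construction. With each array left out in turn, the lower members numbered 16 to 23 and the higher ones 5 to 10, with 5 without Balb/c 100-1 and 5 without Balb/c 400-1. The share of all genes called in these fits moved too, from 22.5% without Balb/c 400-1 to 36.8% without C57BL/6 200-1. After centring each array on its median, 21 members were lower and 6 higher, and range scaling gave 25 and 5. Over all genes centring gave 2510 lower and 2728 higher, in place of 2073 and 3837.

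Marker lists were counted in the same fit, with medians relative to the median gene. Of 10 markers of neurons and dendrites, 3 were lower and 1 higher (median −0.95), with mean levels of 7.53 to 8.61 in Balb/c and 8.23 to 8.75 in C57BL/6. Of 5 nuclear RNAs, 4 were lower (median −1.68), with means of 7.70 to 9.43 against 8.43 to 10.55. For 8 microglial markers, 2 were higher (median 0.19, means of 6.87 to 7.43 against 6.11 to 7.14), and for 9 oligodendrocyte markers 3 (median 0.04, 6.48 to 6.96 against 6.24 to 6.67). Of 4 endothelial markers 2 were higher (median 0.46, 5.59 to 7.06 against 5.85 to 6.34), and of 8 astrocyte markers 2 were lower (median −0.15, 6.15 to 7.87 against 6.54 to 7.76). Of 8 interneuron markers 2 were lower and 1 higher (median −0.75, 7.06 to 7.55 against 7.33 to 8.72), and the same counts held for 8 pyramidal markers (median −0.20, 6.49 to 7.78 against 6.89 to 8.05). Values on this scale have no true zero. A line at 8.50, the 90th percentile of 71 olfactory and vomeronasal receptor genes, was used as a guide to background signal. Where a strain lies under the line, a difference is one of deposited values, and no fold of RNA is given. Only 9 of the 54 members had a mean over all arrays above it. Of the 20 lower members, 14 had a C57BL/6 mean above the line and 1 (Eif2b4) a Balb/c mean above it. Of the 8 higher members, 1 (Eif2b2) had a Balb/c mean above the line and 0 a C57BL/6 mean above it.

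The largest shift was in eEF1. Eef1a1, the main form of the factor that delivers aminoacyl-tRNAs, was at 6.00, 7.03, 10.36, 6.93 and 7.80 in the Balb/c arrays 100-1, 100-2, 200-1, 400-1 and 400-2. In C57BL/6 it ran from 10.08 to 12.97 with a median of 10.93. Balb/c 200-1 lay within the C57BL/6 range, and the other 4 Balb/c arrays lay over 2 log2 units below it. The difference was −3.64 ± 0.52 (SE) (adjusted p = 0.00018, limma), with a Balb/c mean of 7.62, under the background line. Eef1a1 has many processed pseudogenes, and its value rests on 1 probe set.

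Eef1a2, the form that replaces eEF1A1 in mature neurons and muscle, was at 6.90, 7.05, 7.37, 6.88 and 6.45 in the same order of Balb/c arrays, against 7.12 to 8.37 (median 7.74) in C57BL/6. Only Balb/c 200-1 reached into the C57BL/6 range. The difference was −1.04 ± 0.22 (adjusted p = 0.00757). The ratio of Eef1a1 to Eef1a2 within an array differed by −2.60 ± 0.71 (SE) log2 units between the strains (exact permutation test, two-sided, p = 0.000516, adjusted over 7 paralog pairs p = 0.00181). Within the long number format it differed by −2.71 and was not called (adjusted p = 0.0556). With 5 against 4 arrays, the few possible splits set a floor for this p. The missed threshold therefore does not show that the difference was lost. A ratio shows unequal change of the pair and not which of the 2 probe sets reports the higher level.

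Eef1b2, the exchange factor that reloads eEF1A with GTP, was at 8.27, 6.17, 10.02, 6.61 and 9.46 in Balb/c and at 9.28 to 12.12 (median 10.91) in C57BL/6. The 3 lowest Balb/c arrays lay below every C57BL/6 array, and Balb/c 200-1 and 400-2 overlapped with them. It differed by −3.12 ± 0.49 (adjusted p = 0.000344). Eef1e1, named with the family but known as a scaffold protein of the aminoacyl-tRNA synthetase complex, was at 6.76, 7.03, 7.27, 4.82 and 6.26, against 6.53 to 10.37 (median 9.26). The lowest C57BL/6 value was that of C57BL/6 200-1, and the groups overlapped through it. The difference was −2.75 ± 0.48 (adjusted p = 0.000749). Eef1d, another exchange subunit, was also lower (−1.04 ± 0.26, adjusted p = 0.0189), a call lost in 2 of the 19 fits that left out 1 array, those without Balb/c 100-2 and Balb/c 400-1. Its direction depended on the probe set. With each gene represented by its probe set of the highest mean, Eef1d was called higher in Balb/c, by 0.52 as deposited (adjusted p = 0.0397). In the limma fit of all probe sets, that probe set was not called (adjusted p = 0.0505). There, 1 other was called lower, at −4.24 as deposited, and 1 higher, at 2.40.

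**Figure D2:**
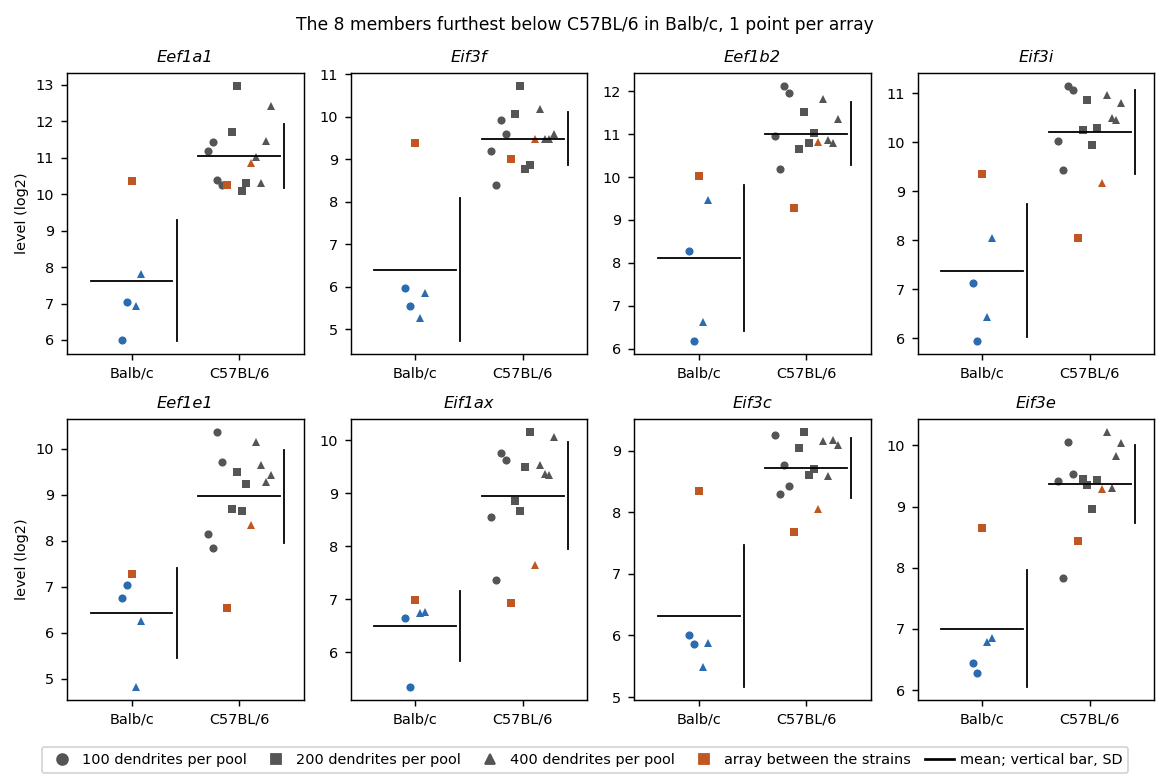
Levels (log2, vertical axis) of the 8 members furthest below C57BL/6 in Balb/c, with 1 point per array, the shape giving the pool size, the line the mean and the vertical bar the SD. The 3 arrays between the strains are in orange. Balb/c 200-1 is the highest Balb/c array in each of the 8 panels, and for Eef1a1, Eif3f, Eif1ax, Eif3c and Eif3e it is the only Balb/c array inside the C57BL/6 range.

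eIF3 had 11 measured subunits, of which 7 were lower, 1 was higher and 10 lay below the median gene. Its mean level was 6.35 to 7.63 in Balb/c and 7.31 to 8.49 in C57BL/6. Eif3f, a subunit with an MPN domain, was at 5.98, 5.56, 9.37, 5.26 and 5.86 in Balb/c and at 8.40 to 10.72 (median 9.48) in C57BL/6. The difference was −3.29 ± 0.46 (adjusted p = 0.000172), with a Balb/c mean of 6.40. Apart from Balb/c 200-1, the Balb/c arrays lay together and at least 2 log2 units below any C57BL/6 array.

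Eif3i, a subunit of the module that meets eIF3b and eIF3g, was at 7.14, 5.94, 9.35, 6.43 and 8.05 in Balb/c, against 8.04 to 11.14 (median 10.37). Here C57BL/6 200-1 was the lowest of its strain, just under Balb/c 400-2, and the difference was −3.04 ± 0.47 (adjusted p = 0.000318). Eif3c, a core subunit, was at 6.01, 5.86, 8.35, 5.48 and 5.87, against 7.67 to 9.31 (median 8.73), and differed by −2.63 ± 0.35 (adjusted p = 0.000137). Eif3e was at 6.44, 6.27, 8.66, 6.79 and 6.86, against 7.84 to 10.22 (median 9.43), a difference of −2.58 ± 0.36 (adjusted p = 0.00018). Without the probe sets that can match several transcripts, Eif3e lay at −0.57 and was not called (adjusted p = 0.468). For both genes 4 of 5 Balb/c arrays lay below every C57BL/6 array. Eif3a, the large core subunit (−2.07), Eif3k (−1.82) and Eif3l (−1.22) were the other subunits called lower, and Eif3l lost its call without Balb/c 100-2, without Balb/c 400-1 and, at 0.0017 as deposited, without probe sets of several transcripts. Eif3m (−0.82), Eif3h (−0.62) and Eif3d (−0.57) were not called.

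Eif3b, the scaffold of the same complex, was the exception. It was at 7.67, 8.93, 7.60, 9.47 and 7.91 in Balb/c and at 5.88 to 8.11 (median 6.59) in C57BL/6. The Balb/c arrays lay in or above the upper part of the C57BL/6 range, and the difference was 1.20 ± 0.38 (adjusted p = 0.00784). Its value rests on 1 probe set.

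Grouped with scanning and start codon choice were 6 members, of which 2 were lower and none was higher. Eif1ax, the X-linked gene of eIF1A, was at 6.65, 5.34, 6.99, 6.74 and 6.76 in Balb/c and at 6.92 to 10.16 (median 9.35) in C57BL/6. Balb/c 200-1 exceeded only C57BL/6 200-1, and the difference was −2.67 ± 0.45 (adjusted p = 0.00062). Of its 3 probe sets, 1 was lower (−3.91) and the others, at −0.48 and 0.47, were not called. The direction of the gene's value as deposited turned to 0.21 when probe sets that can match several transcripts were left out, and with the probe set of the highest mean it was −0.27; neither was called.

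Eif1a, its autosomal paralog, differed by −0.10 ± 0.26 and was not called. Its 2 probe sets were called in opposite directions, at 1.63 and −1.84. The log2 ratio of Eif1a to Eif1ax was higher in Balb/c by 2.57 ± 0.44, with the 5 Balb/c arrays at −0.23 to 2.0 and the C57BL/6 arrays at −2.84 to −0.86. The ranges did not overlap, and the exact permutation p of 8.6e-05 was the smallest that 11628 splits can give (adjusted p = 0.000602). Eif1a, with means of 7.01 in Balb/c and 6.90 in C57BL/6, lay under the background line in both strains, as did Eif1ax in Balb/c (6.50), so the size of this ratio is not a fold of RNA. Within the long number format it was 1.81 and not called (adjusted p = 0.0556). The few possible splits of 5 against 4 arrays set a floor for this p. Missing the threshold therefore does not show that the difference was lost there. Eif5, the GTPase-activating protein of eIF2, was lower (−1.19 ± 0.36), but lost its call in 9 of the 19 fits with 1 array left out. Eif1b (−0.97), Eif5b (−0.72) and Eif1ad (0.05) were not called.

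For eIF2, 1 of 5 members was lower. This was Eif2s2, the beta subunit, at −2.19 ± 0.38 (adjusted p = 0.000832), with 4 of its 6 probe sets lower. The gamma subunit is encoded by Eif2s3x and its Y-linked copy Eif2s3y, which lay at −0.28 ± 0.43 and −1.03 ± 0.33 and were not called. Eif2a (−0.64) and Eif2d (−0.45), which can carry initiator tRNA without being subunits of eIF2, were not called either. Eif2s3y depended on the processing. It was called lower after quantile normalisation (adjusted p = 0.046, limma), centring (0.0417) and range scaling (0.035). With the probe set of the highest mean it was also called lower, by −2.91 as deposited (adjusted p = 0.000951). The labels do not give the sex of the embryos. Eif2s1, the alpha subunit, was not analysed here.

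eIF2B exchanges the GDP of eIF2 for GTP, and 3 of its 5 subunits were higher in Balb/c. Eif2b2 was at 8.36, 9.48, 8.58, 9.63 and 9.48 in Balb/c and at 6.64 to 9.68 (median 7.45) in C57BL/6. Its highest C57BL/6 values were those of C57BL/6 200-1 (9.68) and 400-1 (8.98), through which the groups overlapped. The difference was 1.28 ± 0.40 (adjusted p = 0.0074), and with the probe set of the highest mean it was 0.37 and not called (adjusted p = 0.293).

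Eif2b1, the alpha subunit, was at 10.61, 8.20, 6.64, 8.42 and 7.94, against 6.21 to 8.47 (median 7.14), a difference of 0.99 ± 0.41 (adjusted p = 0.0268). Eif2b3 was at 7.22, 7.20, 7.39, 9.67 and 6.62, against 5.82 to 7.89 (median 6.52), a difference of 0.82 ± 0.36 (adjusted p = 0.0292). In both genes 1 Balb/c array stood above all others, 100-1 for Eif2b1 and 400-1 for Eif2b3. Without that array the adjusted p rose to 0.148 for Eif2b1 and to 0.177 for Eif2b3, and Eif2b1 also lost its call without Balb/c 400-1. Eif2b3 was not called after centring the arrays (adjusted p = 0.0582) or after range scaling (0.0652). Eif2b1 kept its call after centring (adjusted p = 0.0491) and lost it after range scaling (0.0511). Eif2b4, the delta subunit, went the other way (−1.55 ± 0.49, adjusted p = 0.0409), a call lost in 14 of the 19 fits with 1 array left out. Eif2b5, the catalytic subunit, lay at 0.06 ± 0.25.

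**Figure D3:**
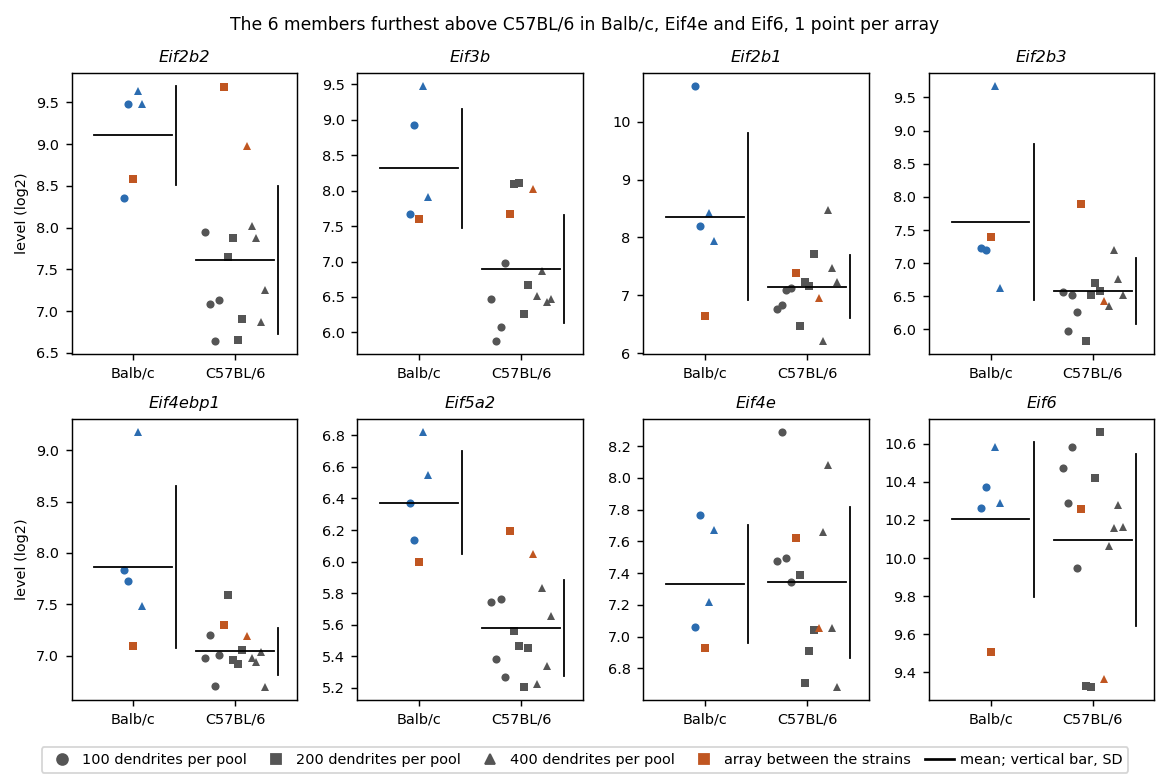
Levels (log2, vertical axis) of the 6 members furthest above C57BL/6 in Balb/c and of Eif4e and Eif6, with 1 point per array, the shape giving the pool size, the line the mean and the vertical bar the SD. The 3 arrays between the strains are in orange. The ranges of the strains overlap in each panel, and single Balb/c arrays stand high for Eif2b1 (10.61), Eif2b3 (9.67) and Eif4ebp1 (9.18).

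Grouped with the cap complex were 10 members, of which 3 were lower and none was higher. Eif4a2, a helicase of eIF4F, was at 6.33, 8.24, 6.73, 7.09 and 6.05 in Balb/c and at 6.09 to 10.69 (median 8.87) in C57BL/6. The ranges overlapped widely, as C57BL/6 had its largest SD among all members here (1.16), and the difference was −2.06 ± 0.51 (adjusted p = 0.00952). Its paralog Eif4a1 was at 7.50, 11.50, 8.73, 9.18 and 7.71, against 6.96 to 10.46 (median 8.79), and was not called (0.02 ± 0.50). The ratio of Eif4a1 to Eif4a2 was higher in Balb/c by 2.08 ± 0.51 (exact permutation p = 0.00645, adjusted p = 0.0150). Within the long number format it was higher by 0.63 and not called (adjusted p = 0.426).

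The helpers of that helicase were also called, with Eif4b at −2.02 ± 0.45 (adjusted p = 0.00517) and Eif4h at −1.42 ± 0.23 (adjusted p = 0.000829). The direction of Eif4h rested on the choice of probe sets. Without those that can match several transcripts it was called higher, by 1.02 as deposited (adjusted p = 0.00674), and with the probe set of the highest mean it was 0.41 and not called. Eif4e, the cap-binding protein itself, was at 7.06, 7.77, 6.93, 7.22 and 7.67 in Balb/c and at 6.68 to 8.29 (median 7.37) in C57BL/6. All 5 Balb/c values fell inside the C57BL/6 range, and the difference was −0.23 (95% interval −0.75 to 0.29). Eif4g2, a relative of the scaffold that lacks the site for eIF4E, was at 7.74, 6.68, 7.05, 7.15 and 8.97, against 7.0 to 8.19 (median 7.59), a difference of −0.31 (−0.89 to 0.28). Both genes depended on the probe set used. With the probe set of the highest mean in place of the median, the difference as deposited was −1.29 for Eif4e (adjusted p = 0.037) and −2.14 for Eif4g2 (adjusted p = 0.003). Eif4a3 (−0.70), Eif4g3 (−0.25), Eif4e3 (−0.17) and Eif4e2 (0.19) were not called, and Eif4g1 was not analysed here.

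Of the genes that hold eIF4E back, both measured 4E-BPs were higher. Eif4ebp1 was at 7.83, 7.72, 7.09, 9.18 and 7.48 in Balb/c and at 6.70 to 7.60 (median 7.0) in C57BL/6, a difference of 0.60 ± 0.25 (adjusted p = 0.0145) that was not called without Balb/c 400-1 (adjusted p = 0.0871). Eif4ebp2, the main 4E-BP of the brain, was at 8.16, 7.87, 7.29, 7.89 and 7.81, against 6.42 to 8.02 (median 6.99), a difference of 0.52 ± 0.23 (adjusted p = 0.0175), not called without Balb/c 100-1 (adjusted p = 0.0524) nor with the probe set of the highest mean (0.09, adjusted p = 0.336). For each gene, 4 Balb/c arrays lay above at least 13 of the 14 C57BL/6 arrays. Eif4enif1, a shuttling protein that binds eIF4E, lay at −1.46 ± 0.51 and was not called (adjusted p = 0.0628).

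Eef2, the translocation factor, was at 6.15, 5.42, 5.77, 4.85 and 6.11 in Balb/c and at 5.31 to 7.60 (median 6.82) in C57BL/6, a difference of −1.33 ± 0.30 (adjusted p = 0.00808). Its probe sets lay at −2.40, called lower, and −0.26, not called. Eef2k, the calmodulin-dependent kinase that inactivates eEF2, was at 7.76, 6.74, 6.71, 6.48 and 7.35, against 5.67 to 7.14 (median 6.27). Its call in the other direction was at the threshold (0.49 ± 0.27, adjusted p = 0.0494) and was lost in 13 of the 19 fits with 1 array left out and after centring the arrays.

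Eif5a, which eases the joining of difficult amino acids and carries hypusine, was at 8.54, 8.95, 9.27, 7.63 and 8.07, against 7.59 to 9.39 (median 8.37), a difference of −0.08 (−0.65 to 0.48). Its paralog Eif5a2 was at 6.37, 6.13, 6.00, 6.82 and 6.55, against 5.20 to 6.19 (median 5.51), and was higher by 0.58 ± 0.21 (adjusted p = 0.00621; 0.0502 with the probe set of the highest mean). The ratio of the pair did not pass (−0.66 ± 0.46, exact permutation p = 0.0465, adjusted p = 0.0814). Eif6, which keeps free large subunits apart from small ones, was at 10.26, 10.37, 9.51, 10.58 and 10.29, against 9.32 to 10.66 (median 10.21), a difference of −0.11 (−0.62 to 0.41). It was among the 9 members above the background line and showed no separation of the strains. None of the 4 methyltransferases of elongation factors (Eef1akmt1, Eef1akmt2, Eef1aknmt, Eef2kmt) was called.

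**Figure D4:**
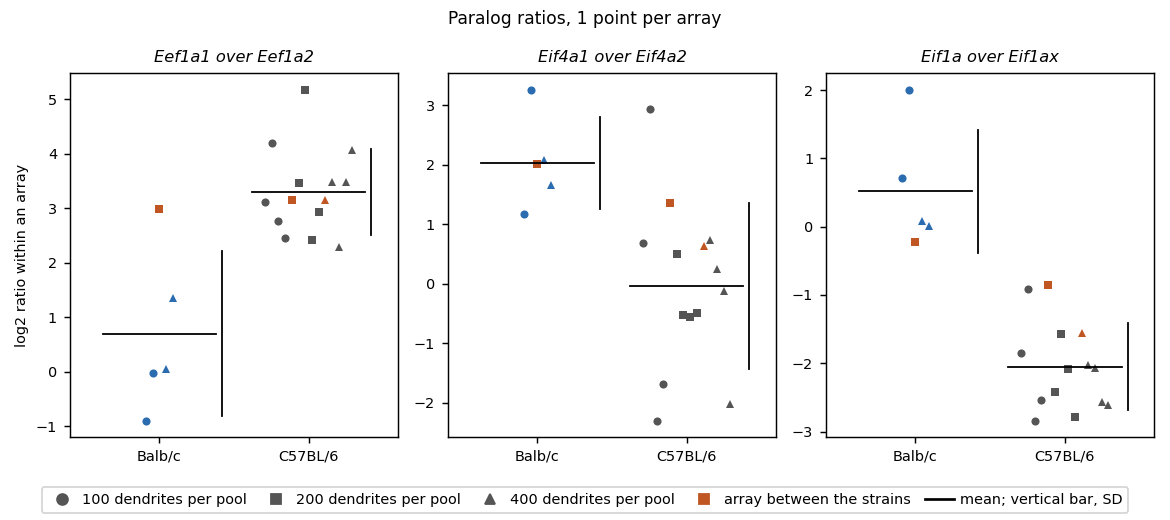
Log2 ratio of paralogs within an array (vertical axis) for the 3 pairs whose ratio differed between the strains, with 1 point per array, the shape giving the pool size, the line the mean and the vertical bar the SD. The 3 arrays between the strains are in orange. The strains separate for Eif1a over Eif1ax and overlap for Eef1a1 over Eef1a2 through Balb/c 200-1, at 2.99.

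The remaining pairs, Eif2s3x to Eif2s3y (0.75 ± 0.47, adjusted p = 0.354), Eif4e to Eif4e2 (−0.42 ± 0.20, adjusted p = 0.129) and Eif4ebp1 to Eif4ebp2 (0.08 ± 0.32, adjusted p = 0.742), did not pass in the same exact permutation tests. This depended on the probe set, since with the probe set of the highest mean each of them passed. The values were then 3.04 (adjusted p = 0.00331), −1.16 (adjusted p = 0.0447) and 0.70 (adjusted p = 0.0447), in the same order. A missed threshold does not show that a pair changed alike.

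No member separated the strains fully over all 19 arrays, where 1.21% of all genes did. Without the 3 arrays between the strains, 19 of the 54 did, 15 of them lower and 4 higher, against 15.1% of all genes. The 3 arrays were set apart for their position in these data, so the second count is a description. Spread within a strain also differed between members. In C57BL/6 the SD over 14 arrays ran from 0.20 for Eif4e2 to 1.16 for Eif4a2, and in Balb/c over 5 arrays from 0.23 for Eif5b to 1.70 for Eef1b2. The SD was larger in Balb/c for 26 of the 54 members. With a variance for each strain, 18 members were lower and 7 higher, with 23.7% of all genes called.

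Probe sets of 1 gene often differed. The 54 members had 142 probe sets, of which 44 were lower and 24 higher, or 31% and 16.9%, where 12.9% and 20.4% of all probe sets with 1 symbol were. Of the 38 members with several probe sets, 17 had all of them on 1 side of zero as deposited, and 10 had called probe sets in both directions. The widest case was Eef1d, at −4.45 and 2.19 relative to the median probe set. Eif3h, not called as a gene, had probe sets at −1.49, −0.96 and 2.40. Eif2s3y was at −3.12 and 1.06, Eif3m at −2.69 and 1.06, and Eif3l at −3.37, −1.63 and 1.20. In contrast, all 4 probe sets of Eif3c and all 4 of Eif3e were below zero, with 3 of each called. Probe sets of a gene can lie at different places on a transcript or match several genes, which was not examined here.

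**Figure D5:**
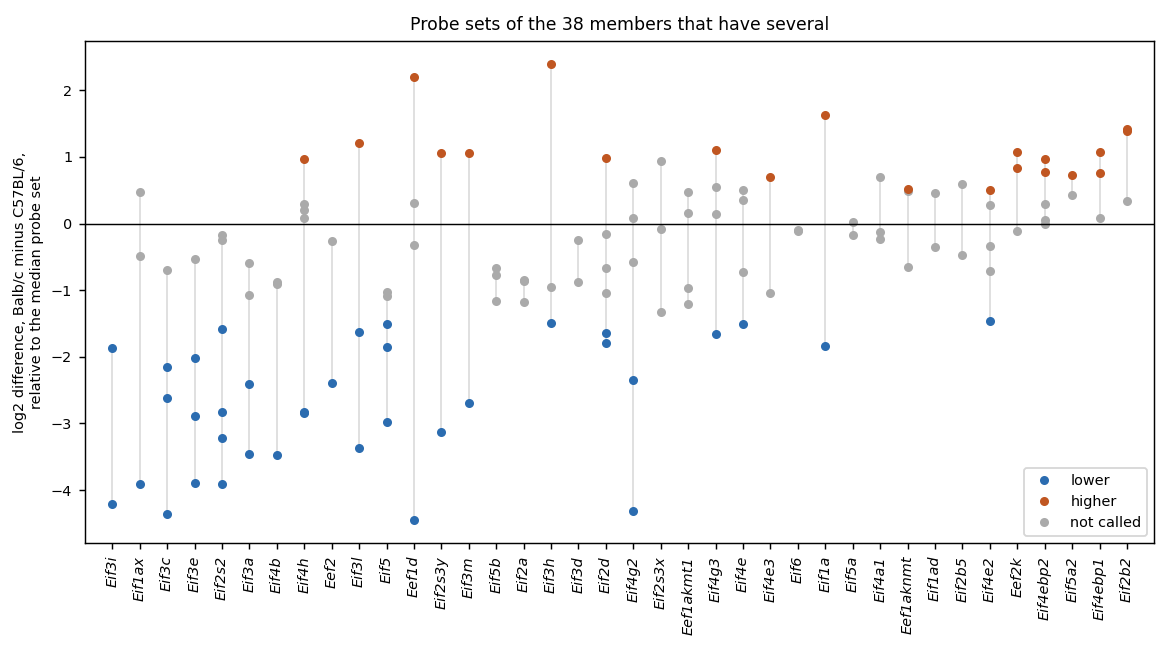
Strain difference of each probe set (log2, Balb/c minus C57BL/6, relative to the median probe set, vertical axis) for the 38 members that have several, ordered by the difference of the gene. Points are probe sets coloured by their own call, and a line joins those of 1 gene. Blue and orange points on the same line mark the 10 members whose probe sets were called in both directions.

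Genes around these factors were counted in the same fit. Of 47 cytosolic ribosomal proteins 31 were lower and 2 higher (66% and 4.26%, median −1.79). Of 22 measured partners and termination factors 9 were lower and 3 higher (median −0.73). Paip2, which pulls poly(A)-binding protein off the mRNA, had a mean of 6.92 ± 1.19 over the Balb/c arrays and 10.91 ± 0.89 over the C57BL/6 arrays (SD), a difference of −4.21 (adjusted p = 3.82e-05, limma). Btf3, part of the complex that meets nascent chains, differed by −2.69, and Mcts1, a partner in reinitiation, by −2.40. The 3 called higher were Pabpc4, a poly(A)-binding protein (1.10, adjusted p = 0.00213), Fmr1, whose product represses translation of dendritic mRNAs (1.01), and Gspt1, the release factor eRF3 (0.67). Of 22 measured kinases and regulators 3 were lower and 2 higher (median −0.03). Rheb, the GTPase that activates mTORC1, was at 7.09 ± 1.43 and 10.58 ± 0.48, a difference of −3.70 (adjusted p = 3.82e-05, limma). Pdpk1, the kinase upstream of Akt, differed by −2.06, Atf4, a transcription factor of the stress response, by −2.01, Tsc1, which restrains Rheb, by 1.16 and Rps6, a ribosomal protein phosphorylated downstream of mTORC1, by 0.79.

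The number of dendrites per pool was the second factor, and its slope was fitted per doubling with strain as a covariate. No member was called and neither was any other gene (0% of 18193, limma), with 850 genes (4.67%) and 1 member under an unadjusted p of 0.05. The member was Eif3h, whose C57BL/6 means were 6.76 ± 0.80 (SD, n = 4), 7.15 ± 0.57 (n = 5) and 8.16 ± 1.25 (n = 5) in pools of 100, 200 and 400, with a slope of 0.49 ± 0.23 (SE, unadjusted p = 0.042, adjusted p = 0.959). The other slopes of largest size, none of them called, were those of Eif4enif1 (0.51), Eef1akmt2 (0.45), Eif4e3 (0.38) and Eif2b2 (0.30) on the positive side and Eif2s3x (−0.35), Eif3k (−0.24), Eif2b4 (−0.19) and Eif3a (−0.16) on the negative side. Slopes were positive for 36 of the 54 members, for 24 within the long number format and for 43 without Balb/c 100-1. The share of positive slopes among all genes is not given here, so the count is a description. The difference of slopes between the strains was called for no gene (0%), with 690 genes and 3 members (Eif5a, Eif2a and Eif1b) under an unadjusted p of 0.05.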

How the data were processed

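The authors deposited log2 expression values per probe set of an Affymetrix mouse genome array, made with RMA (2.0 in the submitters' processing notes). A set's value was the upper decile of its probes. Values ran from 2.12 to 16.00, from which the log base was inferred, and array medians over genes ran from 6.69 to 6.98. How amplification and background subtraction act on low levels was not examined here. From these, a gene's value was computed as a median over those of its probe sets that carry a single symbol (34945 of 45101) in the platform annotation. The 932 probe sets with several symbols, 8 of them with a member, were not used.

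Strains were compared with limma 3.58.1 (R 4.3.3) over 19 arrays with strain as the only term, with Benjamini-Hochberg adjustment over all genes. Pool size was fitted per doubling. Single values and paralog ratios used exact permutation over 11628 splits. The code was tested on simulated data. Figures used matplotlib 3.10.9. Alternatives covered normalisation, probe set choice, dim genes, number format, left-out arrays, pool size, variance, replicate block and the methods' t-test. Members, lists, tests and the naming rule were chosen with earlier results of these data known. The rule named 14 factors, of which Eif4g1 and Eif2s1 were not analysed here, and the 8 lowest and 6 highest called members. Other genes were named within their role.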

Additional observations from a re-analysis of the deposited data

Results flagged for a closer look

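For each of the 24 members described by array, the highest and lowest array of the Balb/c group and of each C57BL/6 pool size was compared with its neighbours by Dixon's test, 96 tests in all, of which chance flags about 1 in 20. A total of 15 stood apart. In Balb/c, array 200-1 was high for Eif3f (9.37, next 5.98), Eif3c (8.35, next 6.01) and Eif3e (8.66, next 6.86). Eif1ax was low in Balb/c 100-2 (5.34, next 6.65) and Eif2b3 high in Balb/c 400-1 (9.67, next 7.39). Array C57BL/6 400-1 stood apart in its pool size for Eif5a (9.39, high), Eif6 (9.37, low), Eif3i (9.17, low) and Eif3b (8.02, high), and C57BL/6 400-2 was high for Eif4a1 (10.46) and Eif3f (10.17). Array C57BL/6 100-2 was high for Eef2k (6.28, next 5.71) and Eif4e (8.29, next 7.49). Eif4g2 was low in C57BL/6 200-3 (7.11, next 7.93), and Eef1e1 in C57BL/6 200-1 (6.53, next 8.65).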

How the results depend on the processing

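Of 28 members called between the strains, 10 were called, all lower, by limma at the study's threshold of 0.001, an alternative chosen after seeing the data. Of all genes 3.85% were called there (428 lower, 272 higher). The methods' t-test at that threshold called 0 members and 0.418% of all genes (56 lower, 20 higher), with 36 members at an unadjusted p under 0.05. Taking the number format as a block left 4 called (4 lower, 0 higher; 1.92% of all genes), and within the long format 0. Numbers were paired for 5 pairs by pool size and replicate as a replicate block, which called 0 members (0 of all genes, 15 members at an unadjusted p under 0.05). For the counts of 36 and 15 members, the share of all genes at an unadjusted p is not given here. They are descriptions only. Deviations of same-numbered arrays correlated at −0.19 to 0.07. The sources do not say whether same-numbered pools share a culture, and these few correlations cannot decide it. With dim genes left out, 7 of 9 members were called (7 lower, 0 higher), as were 37.8% of the genes left (655 lower, 232 higher of 2348). Without probe sets of shared transcripts 11 of 43 were lower and 9 higher (1608 and 3650 of all genes), and 4 members turned, as deposited: Eif4h (1.02) and Eif2d (0.74) to called higher, and Eif1ax (0.21) and Eif3l (0.0017) to not called. With the probe set of the highest mean, Eef1d (0.52) and Eif4g3 (1.32) turned to called higher and Eif4h to 0.41, not called. Range scaling gave 5 higher. With 1 array left out, 22 to 31 members were called, 16 to 23 lower and 5 to 10 higher, and 22.5% to 36.8% of all genes. Pool size gave 0 in each setting. Over the 54 members and 7 pairs, 1646 of 1838 alternative values kept their side of the threshold and any called direction, 146 lost the call, 39 gained it and 7 reversed. The causes were not tested. For paralog ratios the block rests on the long format alone, since the short one held 1 strain, and was not fitted separately. Signal near background limits 45 of 54 members.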
